A study of Homo sapiens with 10 samples.

Results

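Punicalagin and quercetin were compared in THP-1 macrophages on 5 arrays of a series of 10. THP-1 is a human monocytic leukaemia cell line that takes on macrophage traits after phorbol ester (PMA). The cells were given PMA for 24 h and then punicalagin, quercetin, myricetin or the solvent DMSO for 24 h. The comparison rested on the labelled treatment alone and took in 3 punicalagin arrays, of cells at passages 6, 7 and 8, and 2 quercetin arrays, of passages 7 and 8. The other arrays of the series were 3 DMSO arrays, of passages 6, 7 and 8, and 2 myricetin arrays, of passages 7 and 8, which added only to the estimate of spread. The DMSO arrays are also quoted to show on which side of the solvent level a difference lay. All 10 arrays share the line and the PMA step, so the data hold no untreated monocytes. The study's methods give 10 µM for punicalagin. The dose of quercetin is not given in the sources used here, so the compound and its dose cannot be told apart in any difference below. The replicates are labelled biological replicates of 1 line at successive passages, and the p-values measure the spread between such cultures.

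Punicalagin is a large ellagitannin, the main polyphenol of pomegranate peel and juice. Quercetin is a small flavonol found in onions, apples and tea. Both are studied in macrophages because these cells take up modified lipoproteins through scavenger receptors, make cholesterol and export it under the nuclear receptor LXR, and release chemokines and matrix metalloproteinases under NF-kB and AP-1. Flavonols are also known as ligands of the aryl hydrocarbon receptor, which controls cytochrome P450 genes of family 1.

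Levels are log2 intensities of the Human Gene 1.0 ST array, so a step of 1 is a doubling of signal. Differences are punicalagin minus quercetin on that scale, given ± the standard error of the limma fit over the 10 arrays. A gene was called higher or lower where its p, adjusted by Benjamini-Hochberg over 18417 genes, was under 0.05. Values for punicalagin and DMSO are given in the order of passages 6, 7 and 8, and those for quercetin in the order of passages 7 and 8. Each gene was also refitted 10 times with 1 array left out, and the highest adjusted p of these refits is called its leave-one-out adjusted p. As the arrays measure RNA of whole cultures, fewer cells expressing a gene and less of its RNA per cell cannot be told apart.

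Punicalagin and quercetin left many genes at different levels. Genes with several array clusters were ranked on the cluster of highest mean. On that basis the matrix metalloproteinase genes MMP8 and MMP10, the hormone gene STC1 and the growth factor gene TGFB3 were furthest below their quercetin levels. Another cluster of the metallothionein gene MT2A, not kept for the ranking, fell further than STC1 and TGFB3, with a difference of -3.24. The calcium-binding protein gene S100A4, the receptor gene P2RY8, the cytochrome gene CYP1B1 and the proteoglycan gene GPC4 were the furthest above. Of 18417 genes tested, 454 (2.47%) were called higher and 405 (2.2%) lower with punicalagin, and 197 and 171 of these differed at least 2-fold. The median difference over all genes was -0.02. The 3 punicalagin values lay wholly above or below both quercetin values in all 859 called genes, as they did in 36.2% of all genes. The difference therefore had the same sign at passage 7 and at passage 8 in all 859, which is no separate check.

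**Figure D1:**
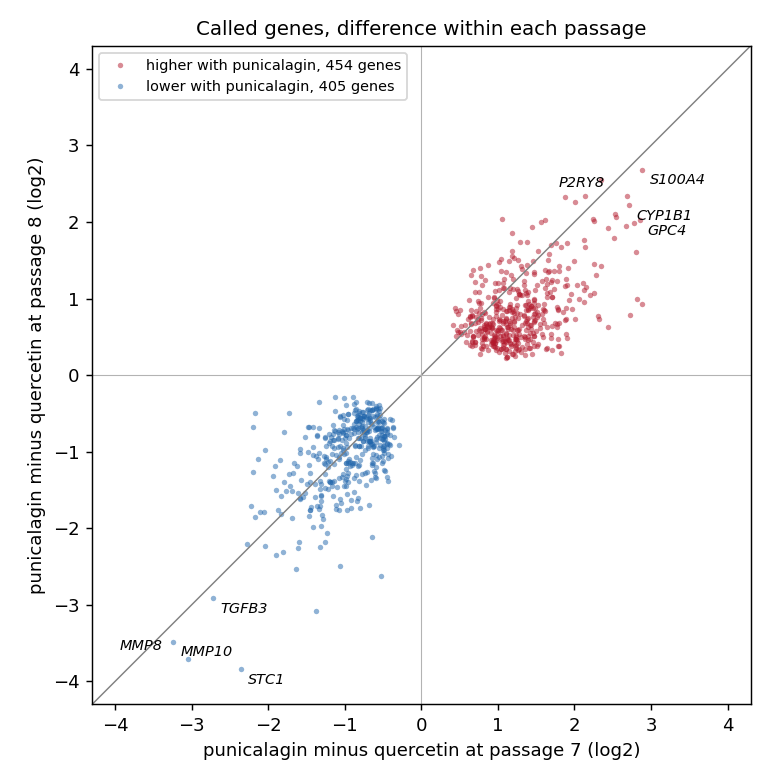
The difference punicalagin minus quercetin (log2) at passage 7 (horizontal axis) and at passage 8 (vertical axis) for the 859 called genes, 1 point a gene, red for 454 higher and blue for 405 lower genes; the grey diagonal marks equal differences. All points lie in the lower left or upper right part of the plot, which follows from groups that do not overlap. MMP8, MMP10, STC1 and TGFB3 lie towards the lower left end and S100A4, P2RY8, CYP1B1 and GPC4 towards the upper right.

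The higher and the lower genes stood differently to the solvent level. In the contrast of punicalagin minus DMSO, 816 genes (4.43%) were called higher and 190 (1.03%) lower. In that of quercetin minus DMSO, 599 (3.25%) were called higher and 230 (1.25%) lower. These contrasts share arrays with the difference between the compounds, so the counts are a description. Of the 454 genes higher with punicalagin, 225 were called apart from DMSO with punicalagin only, 89 with quercetin only and 121 with neither. A further 14 and 5 were called with both, in the same and in opposite directions. Of the 405 lower genes, 36 were called apart from DMSO with punicalagin only, 203 with quercetin only, 31 with both and 135 with neither. Punicalagin was called above DMSO in 241 of the 454 higher genes, and quercetin in 234 of the 405 lower ones. A gene that was not called may still differ. By group means alone, DMSO lay at or above punicalagin in only 47 of the 454 and at or above quercetin in 11 of the 405.

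The counts leaned on single arrays. Without quercetin passage 7, 47 genes were called higher and 51 lower, and 98 of the 859 were still called. Without quercetin passage 8 the counts were 140 and 112, without punicalagin passage 6 they were 283 and 205, and without punicalagin passage 7 they were 253 and 394. Without DMSO passage 6, which enters only the spread, they rose to 712 and 716. With the spread taken from the 5 punicalagin and quercetin arrays alone, 538 genes were called higher and 533 lower. Where 1 quercetin array was left out, the remaining one was assumed to vary like the other groups. Of the 119 genes named below under the rule for named genes that were called, 24 were called in all 10 refits, 93 missed without quercetin passage 7 and 62 without quercetin passage 8. Those called in all 10 are said to be so, and the others missed in at least 1. As the groups did not overlap in any called gene, the sign of the 859 differences could not change in these refits, so its keeping is no check. Within groups, arrays correlated at 0.992 for quercetin and at 0.980 to 0.984 for punicalagin, against 0.977 to 0.981 between a punicalagin and a quercetin array. The median SD of a gene was 0.17 over the punicalagin arrays and 0.084 over the quercetin arrays.

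Markers of the cell type were checked on the same arrays. Of 21 measured macrophage and THP-1 markers, 18 lay above the array median on all 5 arrays, and their mean level was 8.79, 8.97 and 8.31 with punicalagin and 8.34 and 8.44 with quercetin. The macrophage markers CD68, at 11.34, 11.25 and 10.92 with punicalagin and 11.23 and 11.39 with quercetin, and CSF1R, at 11.20, 11.51 and 10.82 and 11.19 and 11.29, were high throughout, while the mannose receptor gene MRC1 was near the low end of the scale at 3.08, 3.25 and 2.96 and 3.05 and 2.99. Called higher were 3 of the 21 (14.3%, against 2.47% of all genes), and 0 were called lower (against 2.2%). The 3 were the leukocyte common antigen gene PTPRC, the Fc receptor chain FCER1G and the cathepsin CTSS. PTPRC was called in all 10 refits, and CTSS was not called with passage as a block (adjusted p = 0.0576). The higher count came to 1 without quercetin passage 7 or quercetin passage 8 and 6 without punicalagin passage 8. CD14, the co-receptor for lipopolysaccharide, spread from 6.30 to 8.88 over the punicalagin arrays, and its difference of 1.63 did not pass (adjusted p = 0.111). Of 24 measured markers of other cell types, 15 lay below the array median on all 5 arrays and 3 above it, with a mean level of 4.45 to 4.62 with punicalagin and 4.58 to 4.60 with quercetin. The endothelial genes VWF (0.83) and PECAM1 (0.67) were called higher, 8.33% of this list against 2.47% of all genes. The platelet chemokine PPBP (-1.73) was called lower, 4.17% against 2.2%. All cultures were of 1 cell line, and a part of other cells in the results was not tested. PECAM1 was high in each group, at 10.45, 10.57 and 10.36 with punicalagin, 9.64 and 9.93 with quercetin and 9.08, 9.13 and 9.46 with DMSO. Another array cluster of PECAM1 differed by 0.37 (adjusted p = 0.734) and was not called, and the higher count of this list was 0 without quercetin passage 7 and 1 without punicalagin passage 6, punicalagin passage 7, myricetin passage 7, myricetin passage 8 or quercetin passage 8.

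The promoters of 5 genes that carry the largest differences or a family with several called members are shown here, as RefSeq gives them for GRCh38.p14. Each run covers the 250 bases before the annotated start, on the gene's own strand and 5′ to 3′. They were read for 1 motif each, on both strands, with matches in capitals. MMP8 and MMP10 were read for the AP-1 motif TGANTCA, which 6.57% of 35116 promoters hold in the same window. CXCL1 was read for a loose NF-kB motif (3 G, any 5 bases, 2 C), held by 54.4% of promoters, and MT2A and MT1X for the metal response motif TGCNCNC, held by 49.1%.
MMP8, chr11:102724955-102725204, minus strand: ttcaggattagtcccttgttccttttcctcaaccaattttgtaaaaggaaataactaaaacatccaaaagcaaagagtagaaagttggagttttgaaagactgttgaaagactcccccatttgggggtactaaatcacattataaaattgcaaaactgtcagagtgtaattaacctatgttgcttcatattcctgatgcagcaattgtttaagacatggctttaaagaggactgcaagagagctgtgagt
MMP10, chr11:102780629-102780878, minus strand: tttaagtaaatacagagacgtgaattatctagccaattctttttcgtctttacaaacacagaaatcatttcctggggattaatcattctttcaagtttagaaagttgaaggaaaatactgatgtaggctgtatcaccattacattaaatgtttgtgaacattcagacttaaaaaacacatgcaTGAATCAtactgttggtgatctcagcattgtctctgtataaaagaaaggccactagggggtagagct
CXCL1, chr4:73869143-73869392, plus strand: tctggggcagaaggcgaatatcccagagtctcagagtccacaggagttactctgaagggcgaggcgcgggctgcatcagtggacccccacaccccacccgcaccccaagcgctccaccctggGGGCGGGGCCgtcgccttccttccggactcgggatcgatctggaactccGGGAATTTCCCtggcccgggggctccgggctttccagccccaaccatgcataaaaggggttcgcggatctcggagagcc
MT2A, chr16:56608334-56608583, plus strand: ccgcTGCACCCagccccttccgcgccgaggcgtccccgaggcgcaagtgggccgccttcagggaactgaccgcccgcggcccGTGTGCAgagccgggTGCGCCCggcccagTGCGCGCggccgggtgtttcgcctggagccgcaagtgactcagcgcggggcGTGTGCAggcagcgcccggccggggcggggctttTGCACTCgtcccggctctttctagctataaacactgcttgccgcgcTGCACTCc
MT1X, chr16:56682220-56682469, plus strand: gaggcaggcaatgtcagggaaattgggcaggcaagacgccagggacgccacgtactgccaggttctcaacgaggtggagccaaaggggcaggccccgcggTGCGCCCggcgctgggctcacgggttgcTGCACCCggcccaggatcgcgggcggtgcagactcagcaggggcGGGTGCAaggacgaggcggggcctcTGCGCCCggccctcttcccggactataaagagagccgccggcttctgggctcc
The MMP10 window held 1 match, its first base 67 bases before the start, and the MMP8 window 0. The CXCL1 window held 3 matches, beginning 128, 79 and 78 bases before the start, and the last 2 overlap. The MT2A window held 7 matches and that of MT1X 4. MT2A and MT1X were chosen for display after their values were seen. A match is a description of letters and not evidence that a factor binds.

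Matrix metalloproteinases, the enzymes that cut collagen, elastin and other matrix proteins, held the largest differences. Of 34 measured matrix proteases and inhibitors, 5 were called lower with punicalagin, all of them metalloproteinases (MMP8, MMP10, MMP3, MMP19 and MMP7), and 5 higher, none of them of this family (ADAM10, ADAMTS1, ADAMTS4, TIMP2 and SERPINI1). These are 14.7% each way against 2.2% and 2.47% of all genes, with a list median of 0.06. The lower count was 4 to 7 over the refits and the higher count 2 without quercetin passage 7 and 8 without DMSO passage 6.

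The neutrophil collagenase gene MMP8 stood at 4.47, 4.78 and 4.08 with punicalagin, 7.83 and 7.79 with quercetin and 3.26, 2.75 and 2.47 with DMSO. The 3 groups did not overlap, and punicalagin lay between the other two. MMP8 was 10.3-fold lower with punicalagin than with quercetin, a difference of -3.37 ± 0.23 (adjusted p = 3.52e-05), and was called above DMSO with both, by 1.62 with punicalagin and 4.99 with quercetin. MMP10, which encodes stromelysin-2, stood at 5.10, 5.15 and 4.98, 8.39 and 8.47 and 5.44, 4.95 and 4.43 in the same order of groups. Its punicalagin values lay within the DMSO range, and its difference between the compounds was -3.35 ± 0.23 (adjusted p = 3.52e-05). MMP3, the closely related stromelysin-1, stood at 4.24, 4.10 and 4.24, 6.38 and 6.44 and 4.68, 3.65 and 3.43, with a difference of -2.22 ± 0.28 (adjusted p = 0.00117). MMP10 and MMP3 are near copies of each other, so probes may share signal between them. Quercetin was above DMSO by 3.49 for MMP10 and 2.49 for MMP3, and punicalagin was not called apart from DMSO for MMP10 (adjusted p = 0.799) or MMP3 (adjusted p = 0.639).

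MMP19, which cuts basement membrane proteins, was at 7.71, 7.55 and 6.82 with punicalagin and 9.45 and 9.17 with quercetin, a difference of -1.95 ± 0.30 (adjusted p = 0.00386). MMP7, or matrilysin, was at 4.14, 4.27 and 3.63 and 4.95 and 5.33, a difference of -1.12 ± 0.19 (adjusted p = 0.00546). Both quercetin values of each gene lay above all 3 punicalagin values, as in every gene called lower. The interstitial collagenase gene MMP1 was at 9.30, 9.63 and 9.40 with punicalagin, 10.46 and 10.61 with quercetin and 8.09, 6.82 and 5.89 with DMSO. The compounds did not overlap, but the difference of -1.09 ± 0.44 (adjusted p = 0.219) did not pass over 10 arrays, with a 95% confidence interval of -2.05 to -0.14. On the 5 compared arrays it passed (adjusted p = 0.00386). Along chromosome 11, in the order MMP7, MMP20, MMP27, MMP8, MMP10, MMP1, MMP3, MMP12 and MMP13, the differences were -1.12, -0.03, -0.18, -3.37, -3.35, -1.09, -2.22, 0.86 and -0.36, so called and uncalled genes were interleaved. MMP12 (0.86 ± 0.26, adjusted p = 0.091), MMP9 (-0.72 ± 0.43, adjusted p = 0.464), MMP2 (0.90 ± 0.28, adjusted p = 0.107) and MMP14 (0.49 ± 0.15, adjusted p = 0.0946) did not pass over 10 arrays, and of these MMP9 passed on the 5 compared arrays (adjusted p = 0.033). MMP8, MMP10 and MMP3 were called in all 10 refits, while MMP19 missed without quercetin passage 7 (leave-one-out adjusted p = 0.0912).

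**Figure D2:**
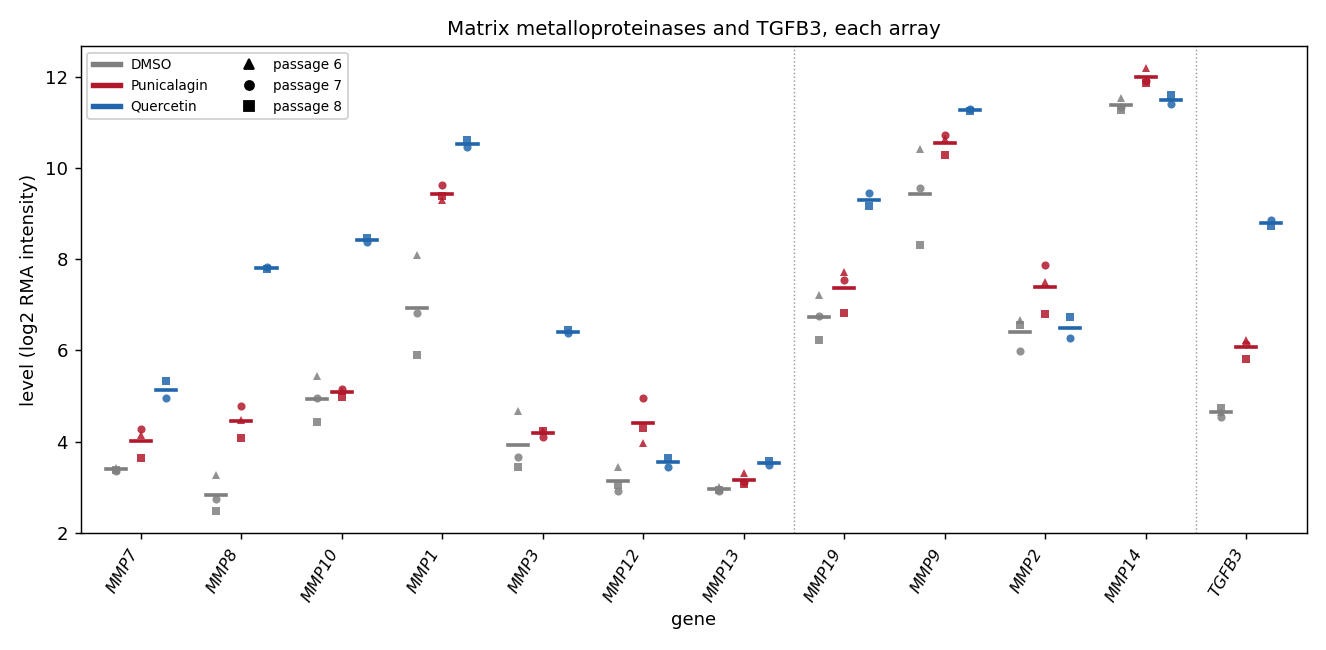
Levels (log2 intensity, vertical axis) of 11 matrix metalloproteinase genes and TGFB3 (horizontal axis) on each array, grey for DMSO, red for punicalagin and blue for quercetin; symbols mark passages and bars are group means. The quercetin points of MMP8, MMP10, MMP3 and TGFB3 stand 2 or more log2 steps above every punicalagin point, while those of MMP12, MMP2 and MMP14 stand below the punicalagin mean.

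TGFB3, a ligand of the TGF-beta family, showed the lowest adjusted p of all genes named. It stood at 6.24, 6.14 and 5.82 with punicalagin, 8.86 and 8.73 with quercetin and 4.66, 4.55 and 4.74 with DMSO. All 3 groups were apart, with punicalagin between. The difference was -2.73 ± 0.16 (adjusted p = 1.25e-05), a 6.64-fold lower signal with punicalagin, while punicalagin itself was 1.42 above DMSO, and it was called in all 10 refits. STC1, the calcium-regulating hormone stanniocalcin, stood at 6.84, 7.01 and 5.80, 9.36 and 9.64 and 8.35, 7.44 and 5.55. Its DMSO values spanned over 2 log2 steps, and the difference of -2.95 ± 0.61 (adjusted p = 0.0161) was not called without quercetin passage 7 or quercetin passage 8 (leave-one-out adjusted p = 0.153).

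The other genes among the 15 largest falls, ranked on the kept clusters, had varied roles. GAL encodes the neuropeptide galanin and differed by -2.03 ± 0.23 (adjusted p = 0.000628). DOCK3, an exchange factor for the GTPase Rac, differed by -2.06 ± 0.31 (adjusted p = 0.00334), and CACNA1G, a T-type calcium channel, by -1.89 ± 0.18 (adjusted p = 0.000261). The homeobox gene PBX4 (-1.94), RHOBTB3 (-1.94), the adhesion molecule CLMP (-1.88), the phosphatidylserine receptor TIMD4 (-1.92) and the SLAM-family receptor CD84 (-1.94) were also lower. In PBX4, which stood at 6.60, 6.37 and 6.68, 8.59 and 8.38 and 6.39, 6.42 and 6.48 with punicalagin, quercetin and DMSO, punicalagin and DMSO shared 1 level and quercetin stood about 2 log2 steps higher. DOCK3 (leave-one-out adjusted p = 0.0592) was not called without quercetin passage 7, and TIMD4 (0.102) and CD84 (0.109) not without either quercetin array, while GAL, CACNA1G, PBX4, RHOBTB3 and CLMP were called in all 10 refits.

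Chemokine genes were lower with punicalagin than with quercetin where called. Of 26 measured chemokines, 7 were called lower (26.9%, against 2.2% of all genes) and 0 higher, and the list median was -0.24. The 7 were CXCL1, CXCL2, CXCL5, CXCL6, PPBP and CXCL10, of the CXC class, and CCL20, which draws dendritic cells and lymphocytes through CCR6.

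CXCL1, a neutrophil attractant whose promoter is shown above, stood at 7.84, 7.75 and 7.91 with punicalagin, 9.85 and 9.71 with quercetin and 8.26, 7.83 and 7.46 with DMSO. Punicalagin lay within the DMSO range and both quercetin values above it. Its difference was -1.95 ± 0.20 (adjusted p = 0.000382), 3.86-fold lower. CXCL2, of the same class, stood at 5.97, 5.93 and 6.44, 8.06 and 7.54 and 7.27, 6.65 and 5.95, a difference of -1.69 ± 0.31 (adjusted p = 0.00943). CCL20 stood at 10.29, 10.19 and 9.06, 11.83 and 11.59 and 10.79, 9.25 and 9.41, a difference of -1.87 ± 0.45 (adjusted p = 0.0356). PPBP, a platelet chemokine near the low end of the scale, stood at 3.60, 3.98 and 3.81, 5.92 and 5.13 and 3.67, 3.23 and 3.64, a difference of -1.73 ± 0.23 (adjusted p = 0.00157). The quercetin values of all 4 genes lay above every punicalagin value, as in every gene called lower. CXCL8 (-0.65, adjusted p = 0.152) and CCL2 (-0.02, adjusted p = 0.987) did not pass over 10 arrays, and CXCL8 passed on the 5 compared arrays (adjusted p = 0.0194). CXCL1 and PPBP were called in all 10 refits, CXCL2 not without quercetin passage 7 (leave-one-out adjusted p = 0.186), and CCL20 only in the 3 that left out a DMSO array (0.327). The list count was 3 without quercetin passage 7 and 4 without quercetin passage 8.

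Among 32 measured cytokines and inflammatory mediators, 2 were lower (6.25%, against 2.2% of all genes) and 0 higher, with a median of -0.22. These were INHBA, the activin A subunit, at 4.84, 5.03 and 4.41 with punicalagin and 6.49 and 6.17 with quercetin (-1.57 ± 0.21 (adjusted p = 0.00184)), and EREG, an EGF receptor ligand, at 5.71, 5.67 and 5.85 and 6.53 and 6.45 (-0.75 ± 0.14 (adjusted p = 0.0088)). Quercetin was above DMSO for both, by 1.35 and 1.16. IL1B (-1.29, adjusted p = 0.0589) and TNF (0.08, adjusted p = 0.973) did not pass over 10 arrays, and IL1B passed on the 5 compared arrays (adjusted p = 0.0332). INHBA missed without quercetin passage 7 (leave-one-out adjusted p = 0.0568) and EREG without either quercetin array (0.162), and the count was 0 without quercetin passage 7, 1 without quercetin passage 8, 5 without DMSO passage 8 and 8 without DMSO passage 6.

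In the list of NF-kB subunits and feedback genes, those called were lower with punicalagin, and many members also lay below the solvent level. None of the subunits themselves was called. Of 21 measured, 7 were called lower (33.3%, against 2.2% of all genes) and 0 higher, with a median of -0.39. Against DMSO, 10 of the 21 were called lower with punicalagin and 2 with quercetin, where 1.03% and 1.25% of all genes were. SOD2, the mitochondrial superoxide dismutase, stood at 8.27, 8.53 and 8.08 with punicalagin, 9.54 and 9.54 with quercetin and 9.89, 9.59 and 9.48 with DMSO. Quercetin lay in the DMSO range and punicalagin below it, and the compounds differed by -1.25 ± 0.18 (adjusted p = 0.00224). TNIP1, which damps NF-kB, stood at 6.71, 7.17 and 6.83, 7.94 and 7.87 and 8.01, 7.87 and 7.40, a difference with a 95% confidence interval of -1.42 to -0.59 (adjusted p = 0.011). The kinase gene IRAK2 differed by -0.86 ± 0.16 (adjusted p = 0.0108). TRAF1, an adaptor of TNF receptors, stood at 6.79, 7.12 and 6.92, 7.85 and 7.58 and 8.22, 8.44 and 7.93, a difference of -0.77 ± 0.19 (adjusted p = 0.0373) that was not called with passage as a block (adjusted p = 0.0629). NFKBIA, TNFAIP2 and TNFAIP3 were the other members called lower. The list count was 0 without quercetin passage 7, 1 without quercetin passage 8 and 3 without punicalagin passage 6, and SOD2 was not called without quercetin passage 7 (leave-one-out adjusted p = 0.0519), TNIP1 (0.169) and IRAK2 (0.169) not without either quercetin array, and TRAF1 (0.426) not without punicalagin passage 6, punicalagin passage 8, quercetin passage 7 or quercetin passage 8.

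Immediate early genes, which respond within minutes to growth and stress signals, were also lower where called. Of 33 measured, 5 were lower (15.2%, against 2.2% of all genes) and 0 higher, with a median of -0.30. The phosphatase gene DUSP1, which switches off MAP kinases, stood at 8.61, 9.32 and 8.93 with punicalagin, 10.76 and 10.65 with quercetin and 9.85, 8.76 and 8.52 with DMSO, a difference of -1.75 ± 0.32 (adjusted p = 0.00893). DUSP5, a phosphatase for ERK, differed by -1.18 ± 0.20 (adjusted p = 0.00546). FOSB, a subunit of AP-1, stood at 5.08, 4.93 and 6.05, 7.10 and 6.54 and 6.51, 6.38 and 6.20, a difference of -1.47 ± 0.29 (adjusted p = 0.0132). The nuclear receptor gene NR4A2 stood at 4.65, 4.47 and 5.01, 6.27 and 5.76 and 6.62, 5.65 and 5.81, a difference of -1.30 ± 0.29 (adjusted p = 0.023). Quercetin exceeded DMSO for DUSP1 and DUSP5, by 1.66 and 0.80, while punicalagin was below DMSO for FOSB and NR4A2, by -1.01 and -1.31. FOSL1 was the fifth member called. The list count was 0 without quercetin passage 7, 2 without punicalagin passage 6 or quercetin passage 8, 8 without DMSO passage 8 and 9 without DMSO passage 6. DUSP5 was not called without quercetin passage 7 (leave-one-out adjusted p = 0.128), DUSP1 (0.142) not without either quercetin array, FOSB (0.24) not without punicalagin passage 6 or quercetin passage 7, and NR4A2 (0.334) not without punicalagin passage 6, punicalagin passage 7, quercetin passage 7 or quercetin passage 8.

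Interferon response genes made up the list with the most genes called lower. Of 34 measured, 10 were lower (29.4%, against 2.2% of all genes) and 1 higher (GBP2, 2.94% against 2.47%), with a median of -0.48. The list median was -0.20 for punicalagin minus DMSO and 0.36 for quercetin minus DMSO. IFI44L stood at 4.16, 5.01 and 4.37 with punicalagin, 6.31 and 6.34 with quercetin and 5.26, 4.92 and 4.14 with DMSO, a difference of -1.82 ± 0.30 (adjusted p = 0.00519). Its relative IFI44 stood at 4.34, 4.53 and 4.23, 5.92 and 5.83 and 4.26, 4.88 and 4.27, a difference of -1.51 ± 0.20 (adjusted p = 0.00174). The GTPase gene MX2, whose product restricts viruses, stood at 5.67, 6.27 and 5.67, 7.33 and 7.35 and 6.67, 6.27 and 5.94, a difference of -1.47 ± 0.24 (adjusted p = 0.00473). Quercetin lay above every DMSO value for these 3. SAMD9L, a growth suppressor, stood at 6.03, 6.35 and 5.80, 7.61 and 7.28 and 7.04, 7.03 and 6.98, a difference of -1.39 ± 0.21 (adjusted p = 0.00344), and punicalagin lay below every DMSO value. The list count was 3 without quercetin passage 7, 4 without quercetin passage 8 and 6 without punicalagin passage 6. IFI44 was called in all 10 refits, SAMD9L (leave-one-out adjusted p = 0.0912) not without quercetin passage 7, and IFI44L (0.0877) and MX2 (0.0852) not without either quercetin array.

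**Figure D3:**
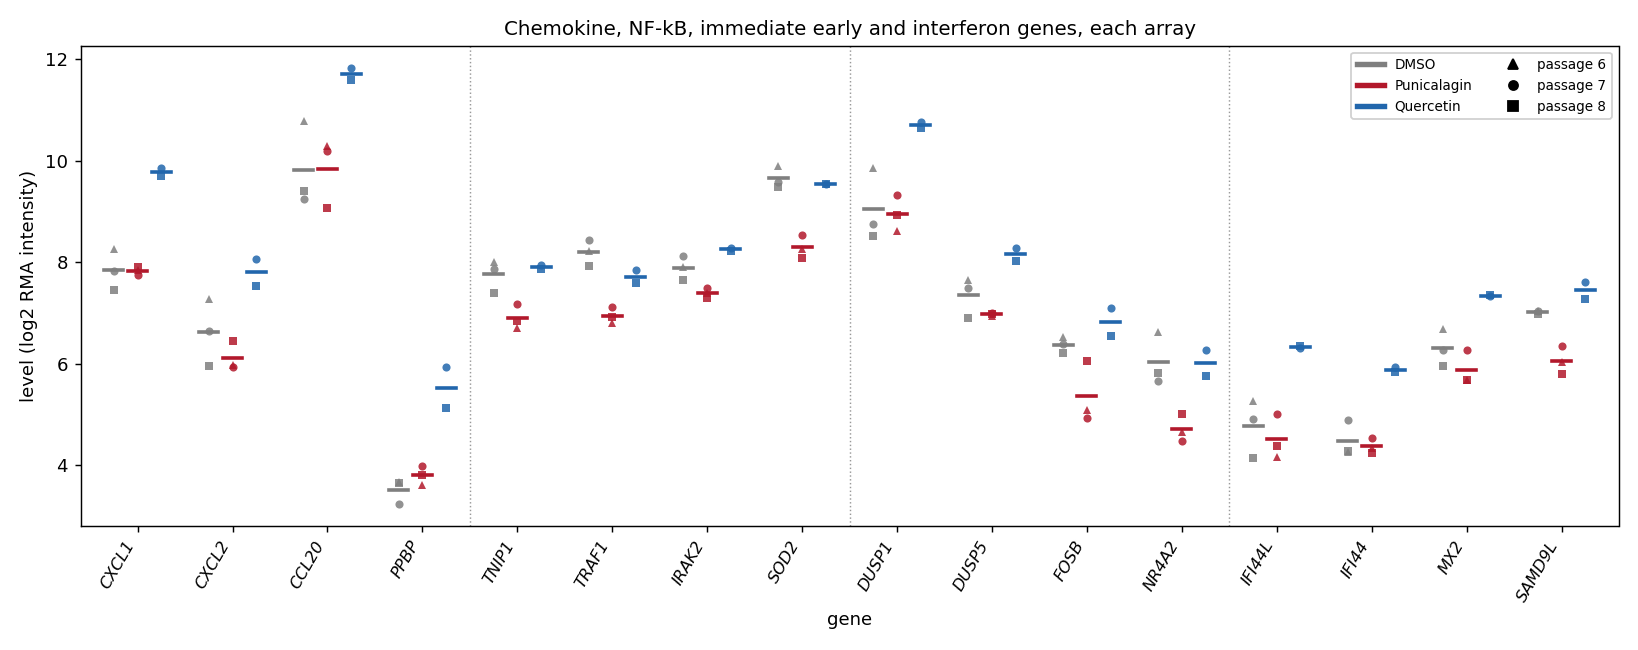
Levels (log2 intensity, vertical axis) of 16 chemokine, NF-kB, immediate early and interferon response genes (horizontal axis) on each array, in colours and symbols as for the metalloproteinases, with bars at group means. The quercetin points stand above the punicalagin points in all 16 genes, as in every gene called lower, so this follows from their choice. For SOD2, TNIP1, TRAF1, IRAK2, FOSB, NR4A2 and SAMD9L the punicalagin points are also below every DMSO point.

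CYP1B1, a cytochrome P450 under the aryl hydrocarbon receptor, was among the largest differences upwards, and its change lay on the quercetin side. It stood at 8.75, 8.99 and 8.55 with punicalagin, 6.27 and 6.33 with quercetin and 9.01, 8.77 and 8.47 with DMSO. The punicalagin and DMSO values overlapped, and quercetin lay over 2 log2 steps below both. The compounds differed by 2.46 ± 0.18 (adjusted p = 4.41e-05), 5.50-fold, and quercetin minus DMSO was -2.45 (adjusted p = 1.31e-05). TIPARP, an ADP-ribosyltransferase that represses the same receptor, stood at 7.48, 7.84 and 8.23, 6.59 and 6.73 and 8.29, 8.55 and 8.31, a difference of 1.20 ± 0.20 (adjusted p = 0.00514). CYP1A1, the classical target, was near the low end of the scale at 3.64, 3.60 and 3.37 and 3.51 and 3.53, with a difference of 0.02 (95% confidence interval -0.45 to 0.48) whose sign changed between settings. Of 16 measured genes of this receptor and its targets, 2 were higher (CYP1B1 and TIPARP) and 1 lower (EREG), with a median of 0.02. These are 12.5% and 6.25%, against 2.47% and 2.2% of all genes. CYP1B1 was called in all 10 refits, and TIPARP missed without quercetin passage 7 (leave-one-out adjusted p = 0.107). The higher count was 1 without quercetin passage 7 and 4 without punicalagin passage 8, and the lower count 0 without quercetin passage 7 or quercetin passage 8, 2 without punicalagin passage 7 and 3 without DMSO passage 6 or DMSO passage 8.

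Genes of cholesterol synthesis were higher with punicalagin where called. Of 16 measured, 3 were called higher (18.8%, against 2.47% of all genes) and 0 lower, 15 of the 16 differences were positive, and the median was 0.43. DHCR7, which makes cholesterol in the last step of 1 branch, stood at 8.93, 9.41 and 8.13 with punicalagin, 6.68 and 7.34 with quercetin and 6.39, 6.20 and 6.91 with DMSO, a difference of 1.81 ± 0.33 (adjusted p = 0.00822). The sterol isomerase gene EBP stood at 8.89, 9.12 and 8.30, 6.92 and 7.26 and 7.09, 7.04 and 6.89, a difference of 1.68 ± 0.21 (adjusted p = 0.00125). For both, punicalagin lay above all quercetin and DMSO values and was called above DMSO, by 2.32 and 1.76. CYP51A1, the lanosterol demethylase, differed by 0.83 ± 0.20 (adjusted p = 0.0403), which was not called with passage as a block (adjusted p = 0.0724), and another array cluster of CYP51A1 differed by 0.49 (adjusted p = 0.337). SQLE, the squalene epoxidase, differed by -0.26 (adjusted p = 0.458). EBP was called in all 10 refits, DHCR7 (leave-one-out adjusted p = 0.176) missed without quercetin passage 7, and the list count was 1 without quercetin passage 7, 5 without DMSO passage 6 and 7 without punicalagin passage 8.

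Other genes of sterol control moved the same way where called. Of 17 measured SREBP targets and sterol control genes, 2 were higher (11.8%, against 2.47% of all genes) and 0 lower, with a median of 0.32. The desaturase gene FADS2 stood at 8.31, 8.19 and 7.95 with punicalagin, 6.42 and 6.72 with quercetin and 5.11, 5.25 and 6.48 with DMSO, a difference of 1.58 ± 0.32 (adjusted p = 0.0157). INSIG1, which holds SREBP in the endoplasmic reticulum, stood at 9.85, 9.93 and 9.62, 8.65 and 8.82 and 9.22, 9.16 and 8.84, a difference of 1.07 ± 0.16 (adjusted p = 0.00335). INSIG1 missed without quercetin passage 7 (leave-one-out adjusted p = 0.0869) and FADS2 without punicalagin passage 6, punicalagin passage 7, quercetin passage 7 or quercetin passage 8 (0.226), and the count was 0 without quercetin passage 7 and 1 without punicalagin passage 6, punicalagin passage 7 or quercetin passage 8.

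NR1H3, the gene of the oxysterol receptor LXR alpha, was lower with punicalagin than with quercetin while both compounds raised it over the solvent. It stood at 6.66, 6.57 and 6.72 with punicalagin, 8.44 and 8.48 with quercetin and 5.38, 5.43 and 5.67 with DMSO. The 3 groups did not overlap, with punicalagin between the other two. The difference was -1.81 ± 0.14 (adjusted p = 5.73e-05), 3.51-fold, against 1.16 for punicalagin minus DMSO and 2.97 for quercetin minus DMSO, and it was called in all 10 refits. Of 15 measured LXR targets, NR1H3 was the 1 called lower, and LPCAT3, a phospholipid acyltransferase, the 1 called higher (0.90 ± 0.19 (adjusted p = 0.0209)). These are 6.67% each way, against 2.2% lower and 2.47% higher of all genes, and the list median was 0.02. The cholesterol exporter gene ABCA1 differed by -0.02 (adjusted p = 0.988) and the apolipoprotein gene APOE by -0.78 (adjusted p = 0.236). LPCAT3 was not called without punicalagin passage 6, punicalagin passage 7, quercetin passage 7 or quercetin passage 8 (leave-one-out adjusted p = 0.264), and the higher count of the list was 2 without DMSO passage 6.

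Receptors for lipoproteins were mostly higher with punicalagin where they differed. Of 22 measured scavenger and LDL receptors, 4 were called higher and 1 lower (LRP12, -0.73), with a median of 0.14. These are 18.2% and 4.55%, against 2.47% and 2.2% of all genes. SORL1, a sorting receptor of the LDL receptor family, stood at 8.90, 9.21 and 8.85 with punicalagin, 6.54 and 6.91 with quercetin and 7.73, 7.88 and 8.50 with DMSO. Punicalagin lay above and quercetin below every DMSO value, and the compounds differed by 2.26 ± 0.22 (adjusted p = 0.000344). SCARB1, the HDL receptor, stood at 9.69, 9.72 and 9.40, 8.24 and 8.52 and 8.10, 8.23 and 8.61, a difference of 1.22 ± 0.18 (adjusted p = 0.00291). LRP1, which takes up remnants and protease complexes, stood at 8.37, 8.70 and 8.31, 7.34 and 7.71 and 6.08, 6.22 and 6.20, a difference of 0.93 ± 0.16 (adjusted p = 0.0067). LRP10 was the fourth. SORL1 was called in all 10 refits, SCARB1 (leave-one-out adjusted p = 0.0847) and LRP1 (0.169) missed without quercetin passage 7, LRP12 (0.171) without either quercetin array, and the higher count was 1 without quercetin passage 7.

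Several genes that stood far above the solvent with both compounds did not pass between them over 10 arrays, and LPL, FABP4 and TDO2 passed when the spread came from the 5 compared arrays alone. The fatty acid translocase gene CD36 stood at 10.52, 10.61 and 10.32 with punicalagin, 10.09 and 10.20 with quercetin and 6.66, 5.54 and 6.29 with DMSO. Its difference was 0.34 ± 0.25 (adjusted p = 0.603), with a 95% confidence interval of -0.21 to 0.88. MSR1, the class A scavenger receptor, differed by 0.49 ± 0.31 (adjusted p = 0.508), interval -0.19 to 1.17. LPL, the lipoprotein lipase, differed by 0.76 ± 0.28 (adjusted p = 0.18), interval 0.14 to 1.37, with an adjusted p of 0.0231 on the 5 compared arrays. PPARG, a nuclear receptor of fat storage, differed by 0.22 ± 0.14 (adjusted p = 0.503), interval -0.08 to 0.52. These intervals leave room for differences of more than 1 log2 step for MSR1 and LPL. FABP4, the fatty acid carrier of fat cells and macrophages, stood at 8.78, 8.85 and 9.10, 10.51 and 10.64 and 5.22, 2.90 and 2.73. The compounds did not overlap, yet the difference of -1.66 ± 0.54 (adjusted p = 0.118) did not pass over 10 arrays. It passed with passage as a block (adjusted p = 0.035) and on the 5 compared arrays (adjusted p = 0.000644). TDO2, the tryptophan dioxygenase, stood at 7.71, 8.23 and 6.93, 9.23 and 9.18 and 5.62, 4.17 and 3.77, with -1.58 ± 0.46 (adjusted p = 0.0819), and passed with the block (adjusted p = 0.0254) and on the 5 compared arrays (adjusted p = 0.0185). In both, the DMSO array of passage 6 stood over 1 log2 step above the other DMSO arrays, which enters the spread.

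Of 29 measured genes of fatty acid uptake, storage and lipid droplets, 4 were higher (13.8%: SLC27A3, FABP3, FITM2 and CPT1A) and 2 lower (6.9%: ACSL5 and MGLL). Over all genes the shares were 2.47% and 2.2%. The acyl-CoA synthetase gene ACSL5 differed by -1.09 ± 0.22 (adjusted p = 0.0153) and the monoglyceride lipase gene MGLL by -0.98 ± 0.18 (adjusted p = 0.0106). SLC27A3, a fatty acid transport protein, differed by 1.11 ± 0.28 (adjusted p = 0.0438) and FABP3, the heart-type carrier, by 0.90 ± 0.22 (adjusted p = 0.0396), the latter not called with passage as a block (adjusted p = 0.0753). The counts were 0 to 7 higher and 0 to 3 lower over the refits. The higher genes fell to 0 without punicalagin passage 7, either myricetin array or either quercetin array, and the lower ones to 0 without either quercetin array.

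**Figure D4:**
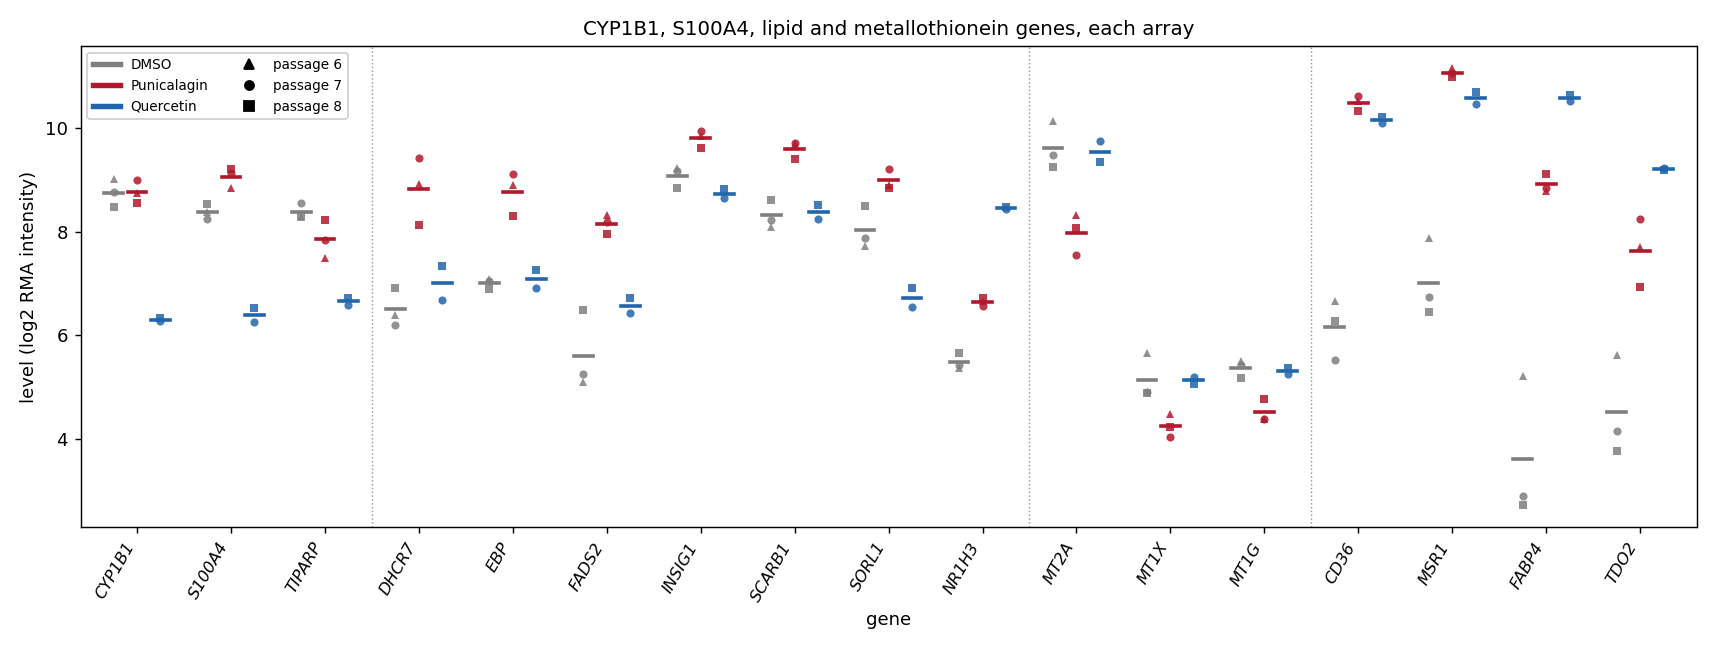
Levels (log2 intensity, vertical axis) of CYP1B1, S100A4, TIPARP, lipid genes and metallothioneins (horizontal axis) on each array, grey for DMSO, red for punicalagin and blue for quercetin, with symbols for passages and bars at group means. Quercetin stands apart from the other groups for CYP1B1, S100A4 and TIPARP, and punicalagin for DHCR7, EBP, FADS2 and the metallothioneins. DMSO stands apart for CD36, MSR1, FABP4 and TDO2. MT2A is shown on its kept cluster.

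Metallothioneins, small proteins that bind zinc and copper, were lower with punicalagin where called. Of 18 measured metallothionein and zinc transport genes, 4 were called lower (22.2%: MT2A, MT1X, MT1G and MT1B) and 1 higher (5.56%: SLC39A10). Over all genes the shares were 2.2% and 2.47%, and the list median was -0.47. On the array cluster kept for MT2A, that of the highest mean, levels were 8.32, 7.55 and 8.07 with punicalagin. They were 9.75 and 9.34 with quercetin and 10.14, 9.47 and 9.24 with DMSO. Quercetin lay within the DMSO range and punicalagin below it. The compounds differed by -1.56 ± 0.27 (adjusted p = 0.00636) on this cluster. On 2 further array clusters of MT2A they differed by -3.24 (adjusted p = 0.000782) and -1.28 (adjusted p = 0.0282). By number on the array, the kept cluster and that with -1.28 lie near the cluster of CXCL1, a gene of chromosome 4. The cluster with -3.24 lies near that of MT1X, of chromosome 16 like the promoter shown above. The place of each cluster was not checked, so the levels given for MT2A may be those of a near copy. MT1X stood at 4.48, 4.04 and 4.23, 5.20 and 5.07 and 5.66, 4.91 and 4.88, a difference of -0.88 ± 0.22 (adjusted p = 0.0449), and MT1G at 4.38, 4.40 and 4.77, 5.25 and 5.37 and 5.50, 5.42 and 5.18, a difference of -0.80 ± 0.16 (adjusted p = 0.0146). Quercetin lay within the DMSO range for these as well. Metallothionein genes are near copies, so probes may share signal among them. SLC39A10, a zinc importer, stood at 8.35, 8.72 and 7.98, 6.47 and 6.91 and 6.17, 6.46 and 6.96, a difference of 1.66 ± 0.26 (adjusted p = 0.00386). The lower count was 0 without quercetin passage 7, 1 without punicalagin passage 6 or quercetin passage 8, 2 without punicalagin passage 7, myricetin passage 7 or myricetin passage 8 and 7 without DMSO passage 6, and 2 after quantile normalization or median centring of the deposited values. MT2A (leave-one-out adjusted p = 0.146) and SLC39A10 (0.101) missed without quercetin passage 7, MT1G (0.156) without punicalagin passage 6, quercetin passage 7 or quercetin passage 8, and MT1X (0.38) was called only in the 3 refits without a DMSO array.

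NRF2 targets and antioxidant enzymes were lower where called, with 1 exception. Of 35 measured, 6 were lower (17.1%, against 2.2% of all genes) and 1 higher (2.86% against 2.47%), with a median of -0.17. The cystine transporter gene SLC7A11 stood at 8.26, 8.44 and 7.62 with punicalagin, 9.36 and 9.25 with quercetin and 7.38, 7.91 and 7.62 with DMSO, a difference of -1.20 ± 0.29 (adjusted p = 0.035) that was not called with passage as a block (adjusted p = 0.0677). TXNRD1, the thioredoxin reductase, stood at 7.87, 8.08 and 8.13, 9.15 and 8.90 and 8.99, 8.71 and 8.44, a difference with a 95% confidence interval of -1.39 to -0.61 (adjusted p = 0.00754). The haem oxygenase gene HMOX1 differed by -0.91 ± 0.22 (adjusted p = 0.0391) and the ferritin light chain gene FTL by -0.79 ± 0.20 (adjusted p = 0.0431). Quercetin was above DMSO for SLC7A11 and HMOX1, by 1.67 and 1.07, and punicalagin below it for TXNRD1 and SOD2, by -0.69 and -1.36. Catalase, CAT, was the gene called higher, at 7.72, 8.18 and 7.36 with punicalagin and 6.42 and 6.70 with quercetin (1.20 ± 0.25 (adjusted p = 0.0187)), and NQO1, a quinone reductase, differed by 0.03 (95% confidence interval -0.50 to 0.55), with a sign that changed between settings. The lower count was 0 without quercetin passage 7 and 2 without punicalagin passage 6, punicalagin passage 8 or quercetin passage 8. TXNRD1 (leave-one-out adjusted p = 0.165) missed without quercetin passage 7, SLC7A11 (0.322) without punicalagin passage 6, punicalagin passage 8, quercetin passage 7 or quercetin passage 8, CAT (0.264) without punicalagin passage 6, punicalagin passage 7, quercetin passage 7 or quercetin passage 8, HMOX1 (0.324) passed only without DMSO passage 6, DMSO passage 8 or punicalagin passage 7, and FTL (0.276) only without DMSO passage 6 or 8.

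S100A4, a calcium-binding protein tied to cell movement, showed the largest rise. It stood at 8.84, 9.14 and 9.20 with punicalagin, 6.25 and 6.53 with quercetin and 8.37, 8.23 and 8.54 with DMSO. All quercetin values lay below all others, and the compounds differed by 2.67 ± 0.21 (adjusted p = 6.58e-05), 6.38-fold, with quercetin -1.99 against DMSO. Of 14 measured NADPH oxidase and S100 genes, 5 were higher (35.7%: S100A4, S100A6 and the oxidase subunits CYBA, CYBB and NCF4) and 0 lower. The share of all genes called higher was 2.47%, and the list median was only 0.06. CYBB, the catalytic subunit, stood at 9.38, 9.69 and 8.85 and 8.10 and 8.35 (1.08 ± 0.24 (adjusted p = 0.0241)) and NCF4 at 8.32, 8.42 and 8.44 and 7.24 and 6.88 (1.33 ± 0.22 (adjusted p = 0.00546)). S100A4 was called in all 10 refits, NCF4 (leave-one-out adjusted p = 0.0887) missed without quercetin passage 8, CYBB (0.305) without punicalagin passage 6, punicalagin passage 7, quercetin passage 7 or quercetin passage 8, and the count was 1 without quercetin passage 8 and 2 without punicalagin passage 6, punicalagin passage 7 or quercetin passage 7.

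Among the other 14 largest rises, the G protein-coupled receptor gene P2RY8 stood at 7.46, 7.46 and 7.30 with punicalagin, 4.78 and 4.95 with quercetin and 6.00, 6.29 and 6.94 with DMSO, a difference of 2.54 ± 0.22 (adjusted p = 0.000167). GPC4, a heparan sulfate proteoglycan, stood at 9.82, 10.02 and 9.60, 7.16 and 7.58 and 7.08, 6.77 and 6.49, a difference of 2.44 ± 0.20 (adjusted p = 8.95e-05). P2RY8 was called apart from DMSO on both sides, by 1.00 with punicalagin and -1.55 with quercetin, and GPC4 with punicalagin alone, by 3.03. CYSLTR1, a leukotriene receptor, stood at 8.90, 9.19 and 8.87, 6.65 and 6.80 and 7.42, 7.55 and 8.37, a difference of 2.26 ± 0.25 (adjusted p = 0.00059), and like P2RY8 lay above DMSO with punicalagin and below it with quercetin.

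The guidance molecule SEMA3D (2.30), the muscarinic receptor CHRM3 (2.29), the hedgehog co-receptor CDON (2.24), the adhesion receptor ADGRD1 (2.20), the natural killer receptor CD244 (2.05), the anthrax toxin receptor ANTXR1 (2.05), the membrane tether ESYT1 (2.06) and the ligand BMP8B (2.07) followed. Another array cluster of BMP8B differed by 1.26 (adjusted p = 0.0275). The small nuclear RNA gene RNU5D-1 differed by 2.21 ± 0.50 (adjusted p = 0.027) and spread widely, with DMSO values of 5.66, 4.23 and 3.28. For SEMA3D, CHRM3 and CDON the DMSO array of passage 8 stood over 1 log2 step above that of passage 7. P2RY8, GPC4, CYSLTR1, ADGRD1, CD244 and ESYT1 were called in all 10 refits. SEMA3D (leave-one-out adjusted p = 0.101), CDON (0.0663) and ANTXR1 (0.052) missed without quercetin passage 7, CHRM3 (0.146) and BMP8B (0.101) without either quercetin array, and RNU5D-1 (0.262) without punicalagin passage 6, punicalagin passage 7, myricetin passage 7, myricetin passage 8, quercetin passage 7 or quercetin passage 8.

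Toll-like receptors and their accessory proteins were higher with punicalagin where called. Of 15 measured Toll-like receptor genes, 5 were higher (33.3%: TLR7, TLR8 and the accessory proteins LY96, CD180 and LY86) and 0 lower. The share of all genes called higher was 2.47%, and the list median was 0.19. LY96, or MD-2, stood at 5.55, 5.25 and 4.37 with punicalagin, 3.50 and 3.68 with quercetin and 3.45, 3.90 and 3.83 with DMSO, a difference of 1.46 ± 0.28 (adjusted p = 0.0106). CD180 stood at 8.89, 9.08 and 8.39, 7.20 and 7.66 and 6.88, 5.94 and 6.76, a difference of 1.36 ± 0.27 (adjusted p = 0.0147). TLR4 itself differed by 0.44 ± 0.16 (adjusted p = 0.18), with a 95% confidence interval of 0.08 to 0.79. With passage as a block, LY86 and TLR7 were not called (adjusted p = 0.0501 and 0.0626). The count was 0 without quercetin passage 7, 1 without quercetin passage 8 and 2 without punicalagin passage 6 or punicalagin passage 7, with LY96 not called without either quercetin array (leave-one-out adjusted p = 0.171) and CD180 not without punicalagin passage 6, punicalagin passage 7, quercetin passage 7 or quercetin passage 8 (0.253).

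Of 36 measured Fc, lectin and paired immune receptors, 6 were higher (16.7%) and 3 lower (8.33%: CD84, CLEC5A and SIGLEC1). Over all genes the shares were 2.47% and 2.2%. TREM2, a lipid receptor of macrophages, stood at 9.44, 9.77 and 9.11 with punicalagin, 7.92 and 8.28 with quercetin and 8.17, 8.07 and 8.24 with DMSO, a difference of 1.34 ± 0.19 (adjusted p = 0.00224). CD300A, an inhibitory receptor, differed by 1.15 ± 0.26 (adjusted p = 0.0249). CLEC5A, which activates myeloid cells, stood at 5.66, 6.00 and 5.39, 7.70 and 7.26 and 5.39, 4.90 and 4.04, a difference of -1.79 ± 0.33 (adjusted p = 0.00943) with quercetin above every DMSO value. The fractalkine receptor gene CX3CR1 was the 1 gene called of 17 chemokine and complement receptors (5.88% higher, against 2.47% of all genes). It stood at 6.35, 6.45 and 5.77, 4.57 and 4.61 and 6.01, 5.60 and 6.66 (1.60 ± 0.27 (adjusted p = 0.00571)). The receptor kinase gene FLT3 was the 1 called of 11 monoblast genes (9.09% higher), with a difference of 2.04 ± 0.33 (adjusted p = 0.00481). The higher receptor count was 0 without quercetin passage 7, 1 without quercetin passage 8 and 3 without punicalagin passage 6 or punicalagin passage 7, and the lower count 0 without quercetin passage 7 and 1 without quercetin passage 8. TREM2 (leave-one-out adjusted p = 0.0674), CLEC5A (0.176) and FLT3 (0.103) missed without quercetin passage 7, CX3CR1 (0.102) without either quercetin array, and CD300A (0.327) without punicalagin passage 6, punicalagin passage 7, quercetin passage 7 or quercetin passage 8.

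Integrins and matrix genes were divided. Of 32 measured integrins and adhesion molecules, 3 were higher (ITGA4, ITGAL and L1CAM) and 3 lower (ITGB3, ITGA2 and NCAM1). These are 9.38% each way, against 2.47% higher and 2.2% lower of all genes. ITGA4, part of the receptor for VCAM-1, differed by 1.70 ± 0.27 (adjusted p = 0.00462) and ITGAL, part of LFA-1, by 1.55 ± 0.22 (adjusted p = 0.00248). ITGB3, part of the vitronectin receptor, stood at 7.69, 8.03 and 7.72 with punicalagin and 9.49 and 9.56 with quercetin (-1.71 ± 0.36 (adjusted p = 0.0191)). Of 44 matrix and proteoglycan genes, 5 were higher (11.4%: GPC4, FBN2, LAMB3, THBS1 and SDC2) and 2 lower (4.55%: COL6A1 and COL6A2). Fibrillin-2, FBN2, differed by 1.32 ± 0.22 (adjusted p = 0.00508). ITGA4 (leave-one-out adjusted p = 0.0904), ITGAL (0.0647) and FBN2 (0.127) missed without quercetin passage 7 and ITGB3 (0.186) without punicalagin passage 6, quercetin passage 7 or quercetin passage 8. The higher counts were 1 without quercetin passage 7, 5 without DMSO passage 8 and 6 without punicalagin passage 8 for integrins, and 1 without quercetin passage 7, 2 without quercetin passage 8 and 3 without punicalagin passage 7 for the matrix. The lower counts were 0 without quercetin passage 7 and 1 without punicalagin passage 6 or quercetin passage 8 for integrins, and 0 to 5 over the refits for the matrix, with 0 without either quercetin array.

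Lysosomal genes made up the list with the most genes called higher. Of 45 measured hydrolases and membrane proteins, 12 were called higher (26.7%, against 2.47% of all genes) and 0 lower, 38 differences were positive, and the median was 0.43. The list median was 0.80 for punicalagin minus DMSO and 0.29 for quercetin minus DMSO. GPNMB, a glycoprotein of phagocytes, stood at 11.24, 11.19 and 10.67 with punicalagin, 9.48 and 9.66 with quercetin and 9.49, 8.90 and 9.16 with DMSO, a difference of 1.46 ± 0.21 (adjusted p = 0.00224). ATP6V0D2, a proton pump subunit, stood at 4.76, 5.41 and 4.97, 3.78 and 3.71 and 4.13, 3.73 and 3.46, a difference of 1.30 ± 0.21 (adjusted p = 0.00521). The fucosidase gene FUCA1 differed by 1.04 ± 0.23 (adjusted p = 0.0239) and the ganglioside activator gene GM2A by 1.03 ± 0.21 (adjusted p = 0.0172). The count was 0 without quercetin passage 7, 2 without quercetin passage 8, 4 without punicalagin passage 6 and 5 without punicalagin passage 7. GPNMB (leave-one-out adjusted p = 0.0592) missed without quercetin passage 7 and ATP6V0D2 (0.0866) without either quercetin array, FUCA1 (0.311) without punicalagin passage 6, quercetin passage 7 or quercetin passage 8, and GM2A (0.238) without punicalagin passage 6, punicalagin passage 7, quercetin passage 7 or quercetin passage 8.

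Chaperones of the endoplasmic reticulum were higher where called. Of 36 measured, 5 were called higher (13.9%: CALR, SEL1L, HSPA5, HERPUD1 and PDIA4) and 0 lower, against 2.47% of all genes called higher. In this list 33 differences were positive, and the median was 0.34. Calreticulin, CALR, stood at 10.94, 11.21 and 10.74 with punicalagin, 9.94 and 10.14 with quercetin and 10.12, 9.87 and 9.98 with DMSO, a difference of 0.92 ± 0.16 (adjusted p = 0.00755). HSPA5, or BiP, stood at 11.25, 11.36 and 10.86, 10.05 and 10.57 and 9.98, 9.73 and 9.65, a difference of 0.85 ± 0.20 (adjusted p = 0.0305). HSPA5 and HERPUD1 were not called with passage as a block (adjusted p = 0.0598 and 0.079). Cytosolic heat shock chaperones leaned the other way, with 19 of 21 differences negative and a median of -0.29, but 0 passed in limma, where 6 were lower at an unadjusted p under 0.05 (1 by the methods' t-test), and HSP90AA1 differed by -0.67 ± 0.23 (adjusted p = 0.147) and HSPH1 by -0.65 ± 0.21 (adjusted p = 0.116). The count of chaperones of the endoplasmic reticulum was 0 without quercetin passage 7, 2 without punicalagin passage 6 or punicalagin passage 7 and 3 without myricetin passage 7 or myricetin passage 8, with CALR not called without quercetin passage 7 (leave-one-out adjusted p = 0.165) and HSPA5 not without punicalagin passage 6, punicalagin passage 7, myricetin passage 7, myricetin passage 8 or quercetin passage 7 (0.453).

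Genes of the glucocorticoid response went both ways, and those called were mostly higher. Of 17 measured, 5 were higher (29.4%: ALOX5AP, ANXA1, ALOX5, THBS1 and TXNIP) and 1 lower (5.88%: DUSP1), against 2.47% and 2.2% of all genes. In this list 8 differences were positive and 9 negative, with a median of -0.03. ALOX5AP, which serves leukotriene synthesis, stood at 9.69, 9.96 and 8.82 with punicalagin, 7.85 and 7.61 with quercetin and 9.99, 9.29 and 10.32 with DMSO. Quercetin lay below all DMSO values (-2.14, adjusted p = 0.00255), and the compounds differed by 1.76 ± 0.33 (adjusted p = 0.0105). ANXA1, annexin A1, differed by 1.02 ± 0.24 (adjusted p = 0.032), and ALOX5, the lipoxygenase itself, by 0.85 ± 0.20 (adjusted p = 0.0345). ALOX5AP (leave-one-out adjusted p = 0.115) missed without either quercetin array, ALOX5 (0.318) without punicalagin passage 7, quercetin passage 7 or quercetin passage 8, ANXA1 (0.31) without punicalagin passage 7, myricetin passage 7, myricetin passage 8, quercetin passage 7 or quercetin passage 8, and the higher count was 0 without quercetin passage 7 or quercetin passage 8, 1 without punicalagin passage 7 and 3 without punicalagin passage 6, myricetin passage 7 or myricetin passage 8. THBS1 was not called with passage as a block (adjusted p = 0.057).

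Lists of growth, energy and housekeeping genes held few calls, against 2.47% of all genes higher and 2.2% lower. Of 54 cell cycle and replication genes 1 was lower (1.85%: CCND1, -0.95 ± 0.15 (adjusted p = 0.00379)) and 0 higher. Of 45 respiratory chain subunits 1 was lower (2.22%: UQCRB, -0.71). Of 50 cytosolic ribosomal proteins 0 passed in limma, where 1 was higher and 2 lower at an unadjusted p under 0.05 (5 and 1 by the methods' t-test). Of 39 glycolysis and hypoxia genes, 2 were higher (SLC2A3 and PFKP) and 2 lower (HIF1A, -0.81 ± 0.16 (adjusted p = 0.0129), and VHL, -0.77), 5.13% each way. The reference gene GAPDH differed by -0.35, with a 95% confidence interval of -0.93 to 0.22. Of 35 measured histone genes, 3 were higher (8.57%: H2AC20, H2BC21 and H1-3) and 0 lower, with a median of 0.27. H2BC21 stood at 7.94, 7.63 and 7.77 with punicalagin, 6.93 and 6.68 with quercetin and 8.17, 8.18 and 7.86 with DMSO, a difference of 0.98 ± 0.16 (adjusted p = 0.00453) with quercetin below every DMSO value. Histone genes are near copies, and probes may share signal among them. H2BC21 missed without quercetin passage 8 (leave-one-out adjusted p = 0.0752), CCND1 (0.094) without quercetin passage 7 and HIF1A (0.178) without punicalagin passage 6, quercetin passage 7 or quercetin passage 8. The glycolysis and hypoxia counts were 0 to 3 higher and 0 to 2 lower over the refits, with 0 of both without quercetin passage 7. The histone count was 0 without quercetin passage 8 and 1 without quercetin passage 7.

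The remaining lists held few calls, several of them near the shares of all genes, 2.47% higher and 2.2% lower. Of 33 ATF4 targets, 1 was higher (SLC1A4, 1.02) and 1 lower (SLC7A11), 3.03% each way, with a median of 0.33. Without punicalagin passage 8, 11 were higher. The list's mean level was 7.15 on that array against 8.00 and 8.26 on the other punicalagin arrays. Of 21 antigen presentation genes, 1 was higher (the lipid-presenting CD1D, 0.80) and 1 lower (the co-stimulator CD80, -1.27), 4.76% each way. The higher count was 0 without punicalagin passage 6, punicalagin passage 7, quercetin passage 7 or quercetin passage 8, 2 without DMSO passage 6 and 4 without punicalagin passage 8, and the lower count 0 without quercetin passage 7 or quercetin passage 8. Of 24 p53 targets 1 was higher (4.17%: CCNG1, 0.74), and of 25 iron and haem genes 2 were lower (8%: HMOX1 and FTL). The ATF4 counts were 0 to 11 higher and 0 to 2 lower over the refits, and the p53 and the iron and haem counts 0 to 1 and 0 to 2. Each of these was 0 without either quercetin array.

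**Figure D5:**
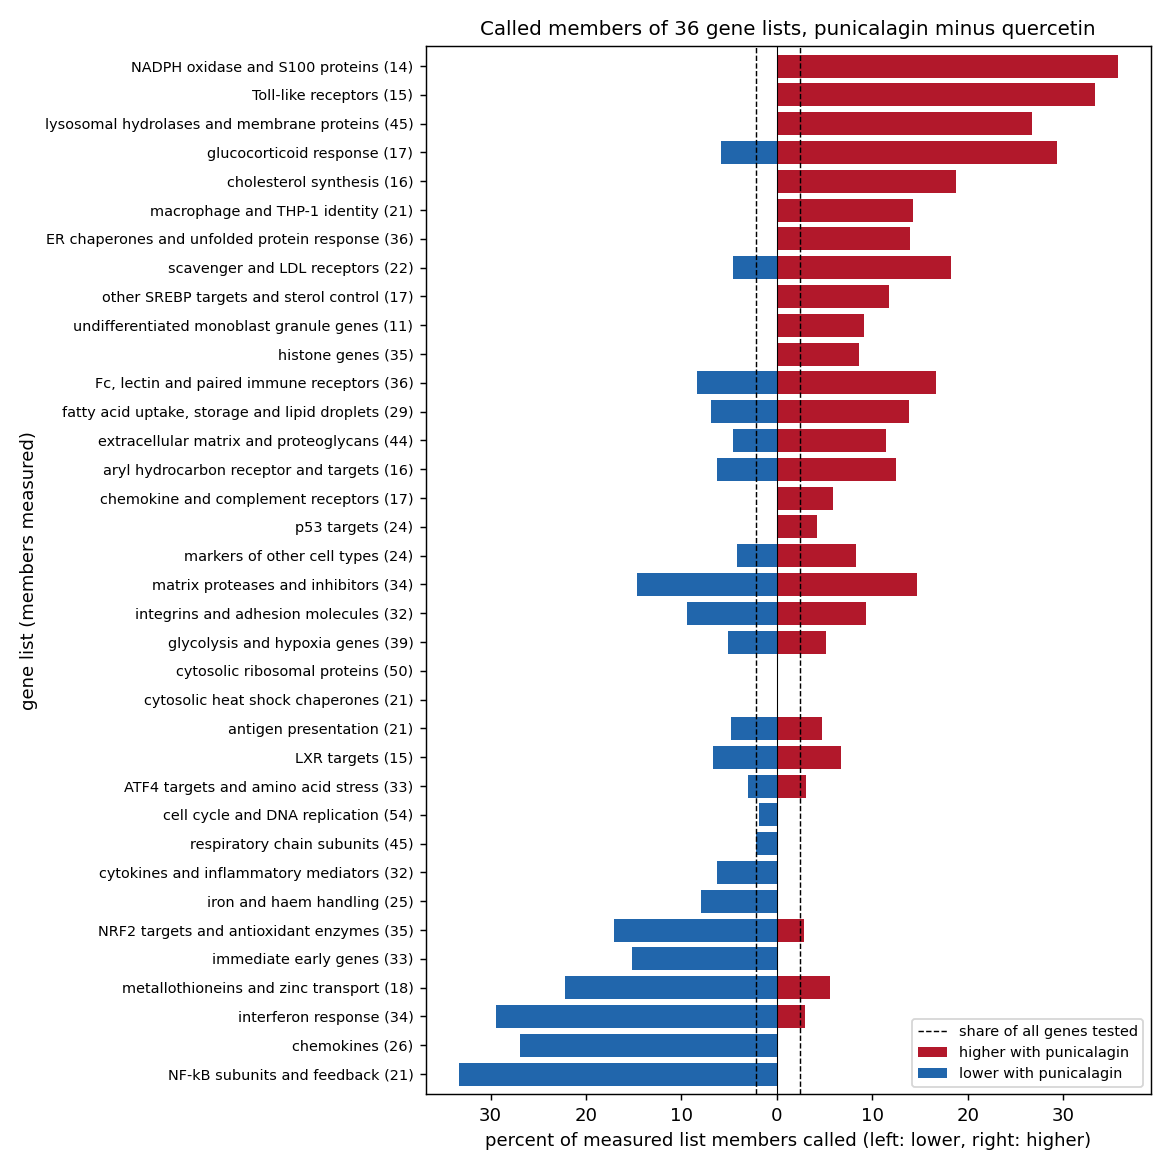
Percent of the measured members of each of 36 gene lists (vertical axis, number measured in brackets) called lower (blue, to the left) or higher (red, to the right) with punicalagin than with quercetin; dashed lines mark the shares of all genes, 2.2% and 2.47%. NF-kB genes (33.3%), interferon response genes (29.4%) and chemokines (26.9%) reach furthest to the left, and NADPH oxidase and S100 genes (35.7%), Toll-like receptors (33.3%), glucocorticoid response genes (29.4%) and lysosomal genes (26.7%) furthest to the right.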

How the data were processed

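RNA of 10 THP-1 cultures was hybridised to Human Gene 1.0 ST arrays, and the authors deposited log2 intensities after RMA (background correction, quantile normalization, probe summary), made in Partek 7.0 by the submitters' processing notes, with replicates not pooled. RMA gives each array nearly the same distribution, so a shift of all genes together cannot be seen. The genome build of the probes is not given in the sources used here, and the number of arrays limits the precision.

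Of 33297 transcript clusters, 19460 had 1 gene symbol, 1754 several and 12083 none in the platform annotation, and 19429 were matched to RefSeq by gene ID. Where a gene had several clusters, that with the highest mean was kept, which left 18417 genes. A limma 3.58.1 model in R 4.3.3 (lmFit, eBayes, 4 group means, 10 arrays, no passage term) gave the differences, tested two-sided and adjusted by Benjamini-Hochberg. The study's methods name an analysis of variance without giving its terms. The model was tested on simulated data. Named genes were the 15 largest rises and 15 largest falls among called genes with non-overlapping groups and 1 sign at both passages, up to 4 called members of each list (2 where none was called) and 20 fixed genes, 135 in all. Where a list had 5 or fewer called members all are named, and a few further genes were chosen after their values were seen. The comparison, the members and the lists were chosen with earlier results of these data known. Of 1124 listed members, 1007 were measured.

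The labels give the passage of each culture, which could pair the arrays. Over all 33297 transcript clusters, deviations from the group means correlated at -0.10 at passage 7 and -0.08 at passage 8. With 2 quercetin arrays their deviations mirror each other, so this is a weak check. Alternatives were passage as a block, passages 7 and 8 only, other sets of arrays for the spread, array weights, another eBayes setting, a filter on dim genes, all clusters, 2 further normalizations, the methods' t-test (analysis of variance) and leaving out each array.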

Additional observations from a re-analysis of the deposited data

How the results depend on the processing

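The direction of the 859 called differences was kept under every alternative in which the gene was tested. As their groups did not overlap, it could not change where arrays were only left out or the spread was taken otherwise. The counts moved more. With passage as a replicate block, 498 genes were called higher and 422 lower, and 705 of the 859 were still called. With the block on passages 7 and 8 alone, the counts were 447 and 387. With the block on all 10 arrays, 10 of 135 named genes lost and 2 gained a call, and these are given with their blocked p in the report. With the block on passages 7 and 8, 19 lost a call, among them ALOX5AP, CAT, CD300A, CYBA, CYBB, FOSB, LPCAT3, PECAM1, SLC1A4 and UQCRB, which kept it with the block on 10 arrays, and 3 gained one (FABP4, TDO2 and MMP1). The spread of the 5 compared arrays alone gave 538 higher and 533 lower genes, and 4 named genes gained and 2 lost a call there. The counts were 225 higher and 210 lower on the 4 punicalagin and quercetin arrays of passages 7 and 8, 715 and 710 on the 7 arrays without DMSO, 1023 and 1219 with array weights, and 264 and 238 over all clusters. Leaving out 1 array gave 47 to 712 higher and 51 to 716 lower genes, the lowest without quercetin passage 7. The methods' t-test on the 5 arrays called 0 and 0 genes after Benjamini-Hochberg (lowest adjusted p 0.0678, 2562 at an unadjusted p under 0.05), and 181 and 181 at an unadjusted p under 0.05 with at least 2-fold. The share of higher among called genes was 52.9%, against 39.1% without punicalagin passage 7 and 63.0% without punicalagin passage 8. The cause of these shifts was not tested.

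Genes that were not called changed sign. CYP1A1 differed by -0.134 with the block on 10 arrays, by -0.0348 with passages 7 and 8 only (with the block, without it, on 4 arrays and without punicalagin passage 6) and by -0.0132 without punicalagin passage 7, with a leave-one-out range of -0.0348 to 0.101. NQO1 differed by -0.0146 with the block, -0.0413 with array weights, -0.199 without punicalagin passage 7 and -0.0613 without quercetin passage 8, with a leave-one-out range of -0.199 to 0.198. Of 119 named genes that were called, 24 were called in all 10 refits leaving out 1 array. With 2 quercetin arrays, small differences and those in genes near the low end of the scale could not be resolved.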

Other observations

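Clusters without a single gene symbol stand outside the comparison of genes. In a fit over all 33297 clusters, 264 were higher with punicalagin than with quercetin and 238 lower. Among 19460 clusters with 1 symbol, 224 were higher and 200 lower. The counts were 28 and 31 among 12083 clusters with no symbol, and 12 and 7 among 1754 with several symbols.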
